A study of Mus musculus with 7 samples.

Results

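The genes described here are 37 immediate early genes and feedback genes of the ERK pathway, chosen as a named list and found by symbol among 46603 gene rows. All 37 were found, and 36 passed a filter on low counts (at least about 10 reads in enough libraries). They comprise 7 AP-1 subunits, 3 EGR factors, 8 factors of the MYC, KLF and NR4A families, 5 other immediate early genes, 6 DUSP phosphatases, 6 SPRY and SPRED inhibitors and 2 ETV factors. RNA was sequenced from TRAMP-C1, an established mouse line labelled prostate epithelial, of strain C57BL/6-TgN(TRAMP)8247Ng, whose transgene drives the SV40 T antigens from the prostate-directed probasin promoter. The groups were 3 libraries with the PAX8-NFE2L2 fusion (replicates 1 to 3), 3 with the matching empty vector and 1 named WT, whose label gives no vector. Fusion and empty vector were carried by the lentiviral plasmid Lv229; the protocol gives 12 h with concentrated virus and a further 24 h in fresh medium. The fusion joins PAX8, which encodes a paired-box factor of the thyroid and kidney, to NFE2L2, which encodes NRF2, the factor behind the antioxidant response. All libraries come from 1 cell line. Since no label calls the replicates separate cultures, p-values here reflect the spread of these samples alone, and it may be technical. The sources used here do not name the promoter of the fusion or the share of transduced cells.

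Growth factors and serum activate RAS, RAF, MEK and ERK kinases in turn, and ERK switches on immediate early genes within minutes, with no new protein needed. Their products include the FOS and JUN proteins, which pair as the AP-1 factor, and the zinc finger EGR proteins. A second layer restrains the pathway: DUSP phosphatases remove phosphate from MAP kinases, and SPRY and SPRED proteins act upstream on RAS and RAF. The ETV factors are an output of the pathway, transcribed in proportion to sustained ERK activity, and are grouped here with the feedback genes. Immediate early transcripts are short-lived and also respond to handling and to fresh medium.

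Gene counts per library ranged from 26368182 to 59597170. A count of 0 therefore allowed a level of up to 0.0503 to 0.114 CPM (counts per 1000000 gene counts, after TMM scaling where levels are given; counting error only). Pax8 lay at 5.57 to 8.53 CPM in the fusion libraries and at no more than 0.217 CPM elsewhere, as the labels say. Nfe2l2 did not separate the groups: it lay at 122.6 to 144.7 CPM with the fusion, 111.2 to 125 CPM with empty vector and 120.1 CPM in WT. The label prostate epithelial met its markers only in part: of 10 epithelial markers 4 stayed below 1 CPM in every library, among them Epcam and Krt5. Of the others, Krt18 lay at 0.418 to 1.44 CPM with empty vector and 4.23 to 8.06 CPM with the fusion, and Foxa1 at 0 CPM with empty vector and 0.412 to 2.13 CPM with the fusion. The part of these markers in the results was not tested. The 6 mesenchymal markers summed to 9895 to 18840 CPM, the 6 immune markers to 1.04 to 3.35 CPM and the 5 endothelial markers to 0.412 to 1.04 CPM. The WT library and those numbered 1 and 2 shared a pair of sequencing lanes, and each library numbered 3 had a lane of its own. Libraries of the same number deviated together from their group means (r = 0.459 to 0.535 over 16731 genes), so the fit with the replicate number as a block, called the paired fit here, is given beside the fit without it.

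Per kilobase of exon, the highest empty vector levels among the 37 genes were those of Ier3 (98.0 CPM per kilobase), Jund (83.8), Ier2 (77.2), Junb (68.6) and Egr1 (54.5). The lowest were those of Dusp2 (0.0772), Nr4a3 (0.167), Fosb (0.474), Egr3 (0.607) and Egr2 (0.787). Dusp2, a phosphatase best known from lymphocytes, was the gene that did not pass the filter. It lay at 0 CPM in the WT library, at 0.2, 0.143 and 0.12 CPM with empty vector and at 0.114, 0.0549 and 0.486 CPM with the fusion. Over the 36 tested genes the SD was 0.78 to 76.3% of the mean with empty vector (median 15.7%) and 2.62 to 57.2% with the fusion (median 21.8%), Etv4 being the tightest and Klf2 the widest with empty vector.

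**Figure D1:**
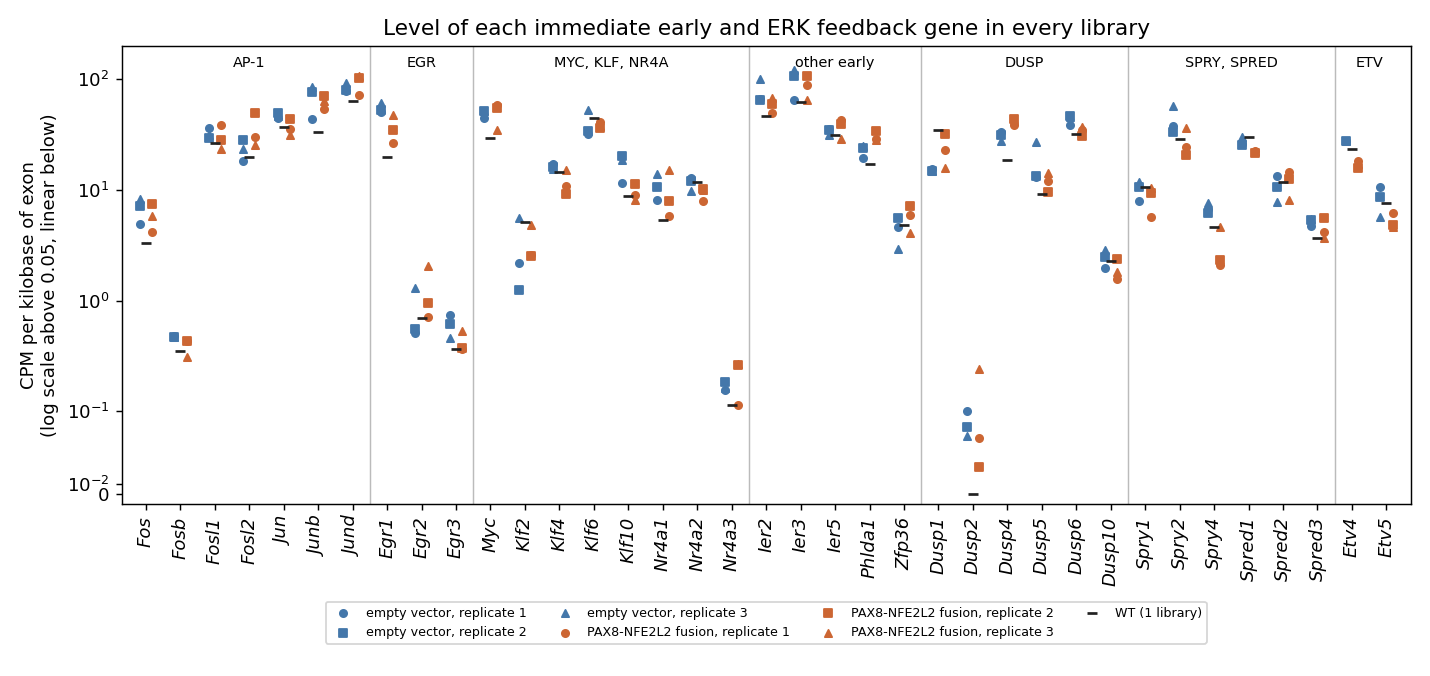
Level of each of the 37 genes in every library, in CPM per kilobase of exon on an axis that is logarithmic above 0.05; blue and orange points are empty vector and fusion replicates and black bars the WT library. Ier3 and Jund stand near 100 and Dusp2 near 0, and most orange and blue points lie close together.

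Etv4, Etv5, Spry2, Spry4, Egr1 and Klf10 were lower with the fusion than with empty vector, while Dusp4 and Phlda1 were higher. With all 6 vector libraries and the count filter, edgeR made these calls only where libraries of the same number were paired. In the paired fit 6 of the 36 genes fell (Spry4, Klf10, Etv4, Spry2, Etv5 and Egr1) and 2 rose (Dusp4 and Phlda1), by edgeR's quasi-likelihood test at an adjusted p under 0.05. That is 16.7% of the genes falling and 5.56% rising, against 5.5% and 7.63% of all 16731 tested genes. Without the pairing none of the 36 passed, where 2.04% of all genes did. An unadjusted edgeR p under 0.05 was found for 8 of the 36, and for 1824 of all 16731 tested genes. DESeq2 called 2, Etv4 and Spry4, both lower (5.51% of all genes, and 1.79% lower). The paired calls, though not the sizes of the differences, depended on number 2. With both libraries numbered 2 left out, none of the 8 passed in the paired edgeR fit, where 2.46% of all genes still did, and the smallest adjusted p was 0.0551, for Spry2. The differences stayed near their values (Spry2 -0.66 against -0.67, Etv4 -0.65 against -0.70, Klf10 -0.79 against -0.81), while the SE grew, for Spry2 from 0.07 to 0.12. Without number 1 the calls of Phlda1 and Etv5 were lost (adjusted p = 0.196 and 0.0653), those of Dusp5 and Dusp6 were gained, and 8 of the 36 passed, against 9.2% of all genes. With numbers 1 and 2 alone, which shared lanes, the paired edgeR test called 15 of the 36, all 8 among them, against 19.0% of all genes, and without pairing 1, Spry4, against 1.96%. Paired DESeq2 over all 3 numbers called 17, against 17.8%: all 8 and also Fosl2, Jun, Klf4, Ier2, Zfp36, Dusp1, Dusp5, Dusp6 and Spred1 (adjusted p = 0.00502 to 0.0372). Fold changes are in log2 units, fusion over empty vector unless another comparison is named. In bulk RNA a lower level per cell and fewer cells with the transcript cannot be told apart.

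**Figure D2:**
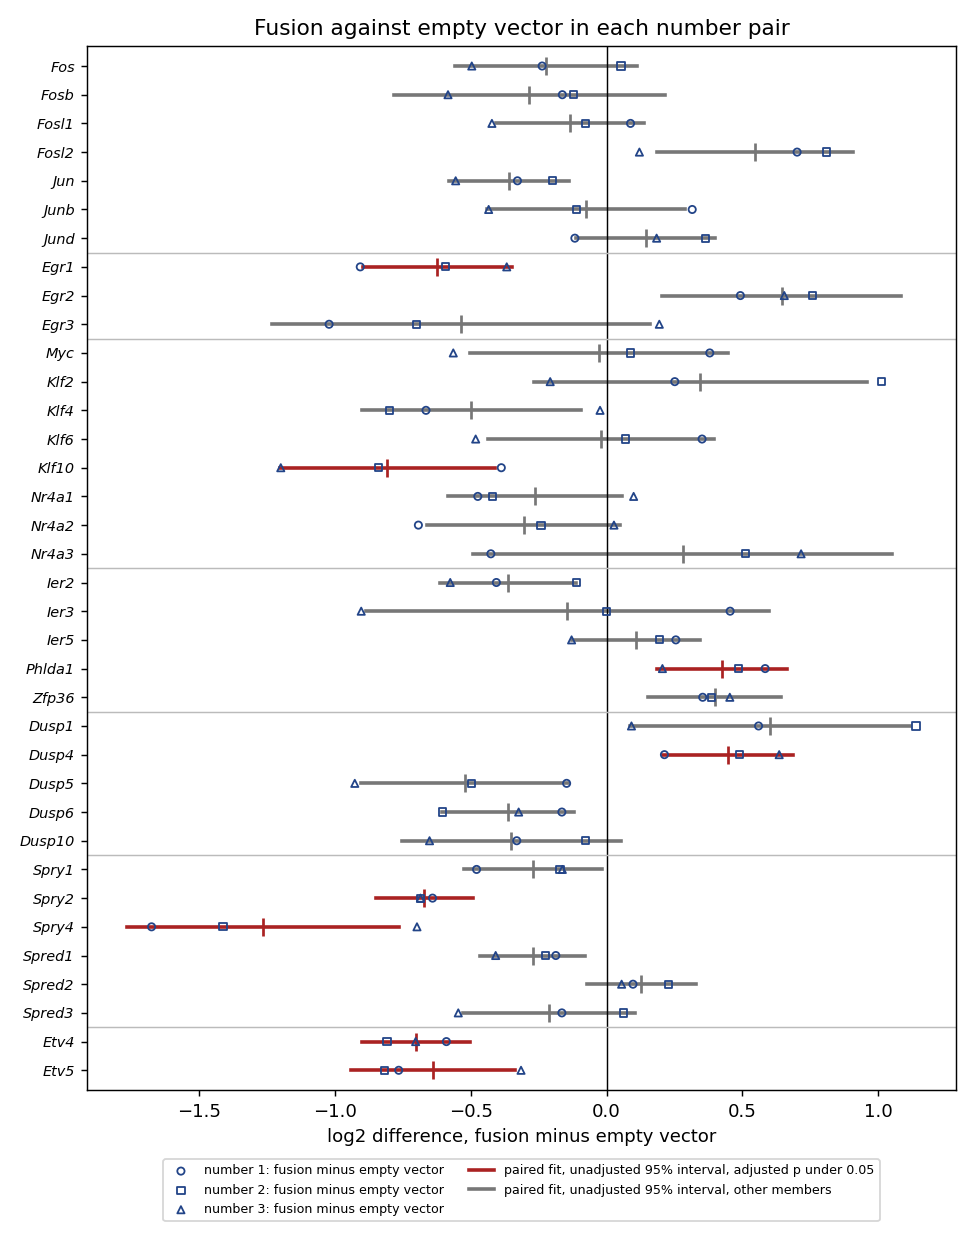
Log2 difference between fusion and empty vector for the 36 tested genes; open symbols are the differences within replicate numbers 1, 2 and 3, and bars the paired estimate with its unadjusted 95% interval, red where the adjusted p was under 0.05. Spry2 and Etv4 have the 3 symbols close together left of 0, while symbols of Myc, Klf2 and Ier3 fall on both sides.

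Among the SPRY and SPRED genes, Spry2 and Spry4 fell in the paired fit, 2 of 6, and none rose. Of all tested genes 5.5% fell and 7.63% rose in that fit. Spry2 (ENSMUSG00000022114.4, chromosome 14:105891947-105896819, minus strand, GRCm38) encodes an inhibitor of receptor tyrosine kinase signalling that ERK activity induces. It lay at 79.5, 69.8 and 121 CPM with empty vector (replicates 1, 2 and 3 in order, as in all such sentences), at 51, 43.4 and 75 CPM with the fusion and at 60 CPM in WT. Both libraries numbered 3 were the highest of their groups and the groups overlap, but each fusion library lay below its partner by nearly the same factor (-0.64, -0.68 and -0.69). The paired fold change was -0.67 (SE 0.07, edgeR adjusted p = 0.00395), against -0.67 (SE 0.29, adjusted p = 0.455) without pairing and -0.66 (adjusted p = 0.0551) without number 2.

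Spry4 (ENSMUSG00000024427.6), another inhibitor of the same family, had the paired fold change furthest from 0 of the 36 genes tested. It lay at 32, 29.7 and 36 CPM with empty vector, at 9.98, 11.1 and 22.1 CPM with the fusion and at 21.9 CPM in WT. Every fusion library lay below every empty vector library, and fusion replicate 3 was the highest of its group. Paired, the difference was -1.27 (SE 0.20, edgeR adjusted p = 0.0167), and -1.18 (SE 0.32, adjusted p = 0.143) without pairing, where it passed once fusion replicate 3 was left out (-1.62, adjusted p = 0.0141) and with DESeq2 (-1.19, adjusted p = 0.0162). Without number 2 the paired value was -1.19 (adjusted p = 0.119).

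The other 4 members of the group did not pass. Spred1, which recruits the RAS inhibitor neurofibromin, lay at 175, 171 and 203 CPM with empty vector and at 154, 147 and 153 CPM with the fusion, with 205 CPM in WT. Its groups did not overlap, yet its paired change of -0.27 missed the threshold (edgeR adjusted p = 0.0751). Paired changes were -0.27 for Spry1, -0.21 for Spred3 and 0.13 for Spred2, with edgeR adjusted p = 0.145, 0.338 and 0.36. Spry1 and Spred3 overlap exons of another gene on the opposite strand, which leaves the origin of some reads uncertain.

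Both ETV factors fell in the paired fit, 2 of 2, where 5.5% of all tested genes fell. Etv4 (ENSMUSG00000017724.13, chromosome 11:101769742-101785371, minus strand) encodes a PEA3 subfamily ETS factor. It lay at 85.9, 85.1 and 86.5 CPM with empty vector, at 57, 48.6 and 53.1 CPM with the fusion and at 72.3 CPM in WT. The empty vector libraries were nearly equal and all fusion libraries lay well below them. Paired and unpaired estimates were equal: the paired fold change was -0.70 (SE 0.08, edgeR adjusted p = 0.00474), and -0.70 without pairing (SE 0.18, adjusted p = 0.113; DESeq2 adjusted p = 0.00514). Without number 2 the paired value was -0.65 (adjusted p = 0.0628).

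Etv5 (ENSMUSG00000013089.14, chromosome 16:22381309-22439719, minus strand), of the same subfamily, lay at 43.5, 35.2 and 23.4 CPM with empty vector and at 25.6, 19.9 and 18.8 CPM with the fusion, with 31 CPM in WT. The groups overlap, since empty vector replicate 3 lay below fusion replicate 1, but each fusion library lay below its partner (-0.77, -0.82 and -0.32). The paired fold change was -0.64 (SE 0.13, edgeR adjusted p = 0.0237), and the value without pairing was -0.67 (adjusted p = 0.395). Without number 1 or number 2 the paired adjusted p was 0.0653 and 0.183. Etv1, the third PEA3 factor and not one of the 37 genes, fell too in the paired fit (-0.96, edgeR adjusted p = 0.0174; DESeq2 without pairing 0.0111).

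Of the 5 DUSP genes tested, Dusp4 rose in the paired fit and none fell, where 7.63% of all tested genes rose and 5.5% fell. Dusp4 (ENSMUSG00000031530.6, chromosome 8:34807297-34819894, plus strand) encodes a nuclear phosphatase of ERK and other MAP kinases. It lay at 91.7, 86 and 75.1 CPM with empty vector, at 106, 121 and 117 CPM with the fusion and at 50.7 CPM in WT. Every fusion library lay above every empty vector library, and WT lay below them all. Paired, the value was 0.45 (SE 0.10, edgeR adjusted p = 0.035), against 0.44 (adjusted p = 0.401) without pairing and 0.42 (adjusted p = 0.225) without number 2.

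Dusp6, the cytoplasmic phosphatase specific for ERK, lay on the other side. It read 121, 146 and 144 CPM with empty vector, 108, 95.9 and 115 CPM with the fusion and 99.6 CPM in WT, with no overlap between the vector groups. In the paired edgeR fit its value of -0.36 (SE 0.10) missed the threshold (adjusted p = 0.065, and 0.569 without pairing). Paired, it passed without number 1 (-0.51, adjusted p = 0.0395) but not without number 2 (-0.24, adjusted p = 0.365). Dusp1, a nuclear phosphatase that acts mostly on p38 and JNK, lay at 51.2, 48.6 and 49.3 CPM with empty vector and at 75.5, 107 and 52.6 CPM with the fusion, with 115 CPM in WT. All 3 fusion libraries were above all empty vector libraries, but by 0.56, 1.14 and 0.09 in the 3 pairs, and the paired value of 0.60 missed the threshold (edgeR adjusted p = 0.121); with numbers 1 and 2 alone it was 0.87 (adjusted p = 0.0052). Dusp5 (-0.52) and Dusp10 (-0.35) did not pass either (edgeR adjusted p = 0.082 and 0.222 in the paired fit). Dusp1 and Dusp5 also overlap exons of another gene on the opposite strand.

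The promoters of Spry2 and Etv5, which fell in the paired fit, are shown for the letters they hold. Those of Dusp5 and Dusp1, 2 DUSP genes that did not pass, are shown beside them. Of the 37 genes 27 had a promoter window in the RefSeq table of build GRCm38.p6, and the 250 bases before the start site were searched on both strands. Those with no window in that table were Dusp4, Klf10, Phlda1, Egr1, Etv4, Spry4, Egr3, Fosl1, Myc and Ier2, which include 6 of the 8 genes called in the paired fit. The motifs were AP-1 (TGANTCA), the cyclic AMP element (TGACGTCA), an antioxidant element core (TGACNNNGC), the EGR site (GCGNGGGCG), an ETS site (CCGGAAG) and the CArG box bound by SRF. TGANTCA and TGACNNNGC can overlap. Capitals mark any match, and each sequence runs 5′ to 3′ on the gene's strand.
Spry2: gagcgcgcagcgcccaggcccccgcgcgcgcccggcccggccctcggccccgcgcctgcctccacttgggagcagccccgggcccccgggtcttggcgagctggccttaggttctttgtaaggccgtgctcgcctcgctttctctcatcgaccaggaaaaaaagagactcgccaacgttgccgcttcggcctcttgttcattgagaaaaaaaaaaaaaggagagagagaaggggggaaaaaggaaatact
Etv5: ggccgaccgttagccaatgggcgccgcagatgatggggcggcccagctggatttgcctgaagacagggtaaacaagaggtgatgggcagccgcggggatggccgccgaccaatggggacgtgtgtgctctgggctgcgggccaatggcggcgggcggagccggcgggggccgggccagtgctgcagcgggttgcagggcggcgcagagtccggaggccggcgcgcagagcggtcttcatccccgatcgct
Dusp5: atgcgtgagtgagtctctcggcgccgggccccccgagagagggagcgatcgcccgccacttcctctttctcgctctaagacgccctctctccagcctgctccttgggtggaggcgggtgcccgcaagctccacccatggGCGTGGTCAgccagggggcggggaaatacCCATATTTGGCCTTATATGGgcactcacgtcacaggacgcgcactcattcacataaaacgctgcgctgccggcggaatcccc
Dusp1: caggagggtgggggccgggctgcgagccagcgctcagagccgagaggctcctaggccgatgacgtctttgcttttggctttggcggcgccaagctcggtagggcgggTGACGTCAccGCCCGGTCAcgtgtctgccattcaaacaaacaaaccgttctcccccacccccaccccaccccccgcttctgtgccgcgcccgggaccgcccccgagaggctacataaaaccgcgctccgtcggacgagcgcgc
The windows are chr14:105896820-105897069 (minus strand), chr16:22439571-22439820 (minus), chr19:53528895-53529144 (plus) and chr17:26508473-26508722 (minus). The Spry2 and Etv5 windows hold none of the motifs. Neither do those of Dusp6, Dusp10, Spry1, Spred1, Spred2 and Spred3, which are not shown, and the Dusp2 window holds 1 EGR site. The windows therefore do not separate the DUSP genes from the other feedback genes. The Dusp5 window holds 2 CArG boxes side by side and 1 match to the antioxidant core, and the Dusp1 window holds 1 cyclic AMP element and 1 match to the antioxidant core. Among the 27 windows 8 (29.6%) hold an EGR site, against 4.74% of all 32536 windows. A CArG box stands in 2 (7.41% against 1.48%), the antioxidant core in 5 (18.5% against 10.2%), the cyclic AMP element in 1 (3.7% against 1.56%), the ETS site in 1 (3.7% against 6.95%) and the AP-1 site in 0 (6.73% of all windows). The 27 are 1 window per gene, while the 32536 are all distinct windows, and base composition was not matched between them. A match is a description of letters and not evidence of binding.

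None of the 7 AP-1 subunits passed in either edgeR fit of all vector libraries. Jun (ENSMUSG00000052684.4, chromosome 4:95049034-95052222, minus strand), the founding JUN subunit, came closest. It lay at 142, 159 and 148 CPM with empty vector, at 113, 139 and 101 CPM with the fusion and at 119 CPM in WT. No fusion library reached the lowest empty vector library, and its paired value was -0.36 (SE 0.09, edgeR adjusted p = 0.0512, without pairing 0.634). Fosl2, which encodes the FOS family member FRA2, lay in the opposite direction. It read 178, 274 and 225 CPM with empty vector, 290, 479 and 245 CPM with the fusion and 193 CPM in WT. Each fusion library lay above its partner, by 0.70, 0.81 and 0.12, but the groups overlap, and its paired value of 0.55 missed the threshold (edgeR adjusted p = 0.0664). With numbers 1 and 2 alone Fosl2 passed the paired edgeR test (0.77, adjusted p = 0.00093), the 1 AP-1 subunit to do so. Without number 1 or number 2 its paired value was 0.42 and 0.41 (edgeR adjusted p = 0.223 and 0.308).

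The founding FOS subunit differed little. Fos lay at 11.7, 17 and 19.3 CPM with empty vector, 9.89, 17.6 and 13.7 CPM with the fusion and 7.84 CPM in WT, with overlapping groups. Its fold change without pairing was -0.22 with a 95% interval of -0.89 to 0.45. The paired value was -0.22, with an interval of -0.56 to 0.11 (edgeR adjusted p = 0.338). Differences within these intervals remain compatible with the data. Junb, a JUN subunit that often restrains Jun, lay at 101 to 196 CPM with empty vector and 125 to 164 CPM with the fusion. In the paired fit Fosl1 (FRA1), Jund, Junb and Fosb stood at -0.13, 0.14, -0.08 and -0.28, with edgeR adjusted p = 0.483, 0.418, 0.781 and 0.415. Jun, Junb, Jund and Fosl1 overlap exons of other genes on the opposite strand.

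Of the 3 EGR factors, Egr1 fell in the paired fit, where 5.5% of all tested genes fell. Egr1 (ENSMUSG00000038418.7), a direct early target of ERK through SRF and its partners, lay at 225, 236 and 273 CPM with empty vector, at 120, 156 and 212 CPM with the fusion and at 89.3 CPM in WT. The groups do not overlap: WT was lowest, the fusion libraries lay between, and empty vector was highest. The paired fold change was -0.62 (SE 0.11, edgeR adjusted p = 0.0196), against -0.59 (adjusted p = 0.417) without pairing and -0.64 (adjusted p = 0.136) without number 2. Egr2 and Egr3, at 1.6 to 6.96 CPM in the vector libraries, stood at 0.65 and -0.54 in the paired fit, with edgeR adjusted p = 0.0681 and 0.272. Without number 3 Egr3 passed (-0.86, adjusted p = 0.0314).

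In the group of MYC, KLF and NR4A factors 1 of 8 fell and none rose in the paired fit. The shares of all tested genes were 5.5% lower and 7.63% higher. Klf10 (ENSMUSG00000037465.9, chromosome 15:38291463-38300706, minus strand), a TGF-beta-inducible repressor, lay at 48.7, 84.9 and 78.3 CPM with empty vector, at 37.3, 47.4 and 34.1 CPM with the fusion and at 37 CPM in WT. All fusion libraries were below all empty vector libraries, with pair differences of -0.39, -0.84 and -1.20. With pairing the difference was -0.81 (SE 0.16, edgeR adjusted p = 0.0303), against -0.84 (adjusted p = 0.214) without pairing and -0.79 (adjusted p = 0.176) without number 2. Klf4, an epithelial differentiation factor, lay at 46.7 to 52.5 CPM with empty vector and 28 to 45.9 CPM with the fusion, without overlap, and did not pass (-0.50, paired edgeR adjusted p = 0.105), though it did with numbers 1 and 2 alone (-0.72, adjusted p = 0.00237).

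Myc, which encodes a transcription factor, showed no shift of the mean but opposite pairs. It lay at 122, 139 and 139 CPM with empty vector and at 159, 148 and 94.2 CPM with the fusion, with 79.6 CPM in WT. Fusion replicates 1 and 2 were above all empty vector libraries and fusion replicate 3 below them, and the paired value was -0.03 (edgeR adjusted p = 0.942). The nuclear receptors Nr4a1, Nr4a2 and Nr4a3 stood at -0.26, -0.30 and 0.28 in the paired fit, with edgeR adjusted p = 0.24, 0.225 and 0.617. Without number 3 the first 2 of these passed (-0.43 and -0.45, adjusted p = 0.0221 and 0.0333). Klf2 and Klf6 stood at 0.35 and -0.02 with all 3 numbers (adjusted p = 0.419 and 0.956).

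Among the other 5 immediate early genes Phlda1 rose in the paired fit and none fell, beside 7.63% and 5.5% of all tested genes. Phlda1 (ENSMUSG00000020205.8, chromosome 10:111506286-111508645, plus strand), which encodes a pleckstrin homology domain protein, lay at 42.8, 53.3 and 54.5 CPM with empty vector, at 64.2, 74.6 and 62.9 CPM with the fusion and at 37.7 CPM in WT. Every fusion library lay above every empty vector library. Paired, Phlda1 stood at 0.43 (SE 0.10, edgeR adjusted p = 0.0396), against 0.42 (adjusted p = 0.497) without pairing, and 0.30 and 0.40 (adjusted p = 0.196 and 0.25) without number 1 or 2. Zfp36, which encodes tristetraprolin, a protein that destabilises AU-rich messages, lay at 16.1, 19.2 and 10.2 CPM with empty vector, at 20.6, 25.1 and 14 CPM with the fusion and at 16.6 CPM in WT. Its pair differences were nearly equal (0.35, 0.39 and 0.45), though the groups overlap, and it just missed the threshold (paired 0.40, edgeR adjusted p = 0.0525; paired DESeq2 0.0372). Ier2, Ier3 and Ier5 stood at -0.36, -0.14 and 0.11 in the paired fit and did not pass, with edgeR adjusted p = 0.0701, 0.784 and 0.511. Phlda1 and Zfp36 overlap exons of other genes on the opposite strand.

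**Figure D3:**
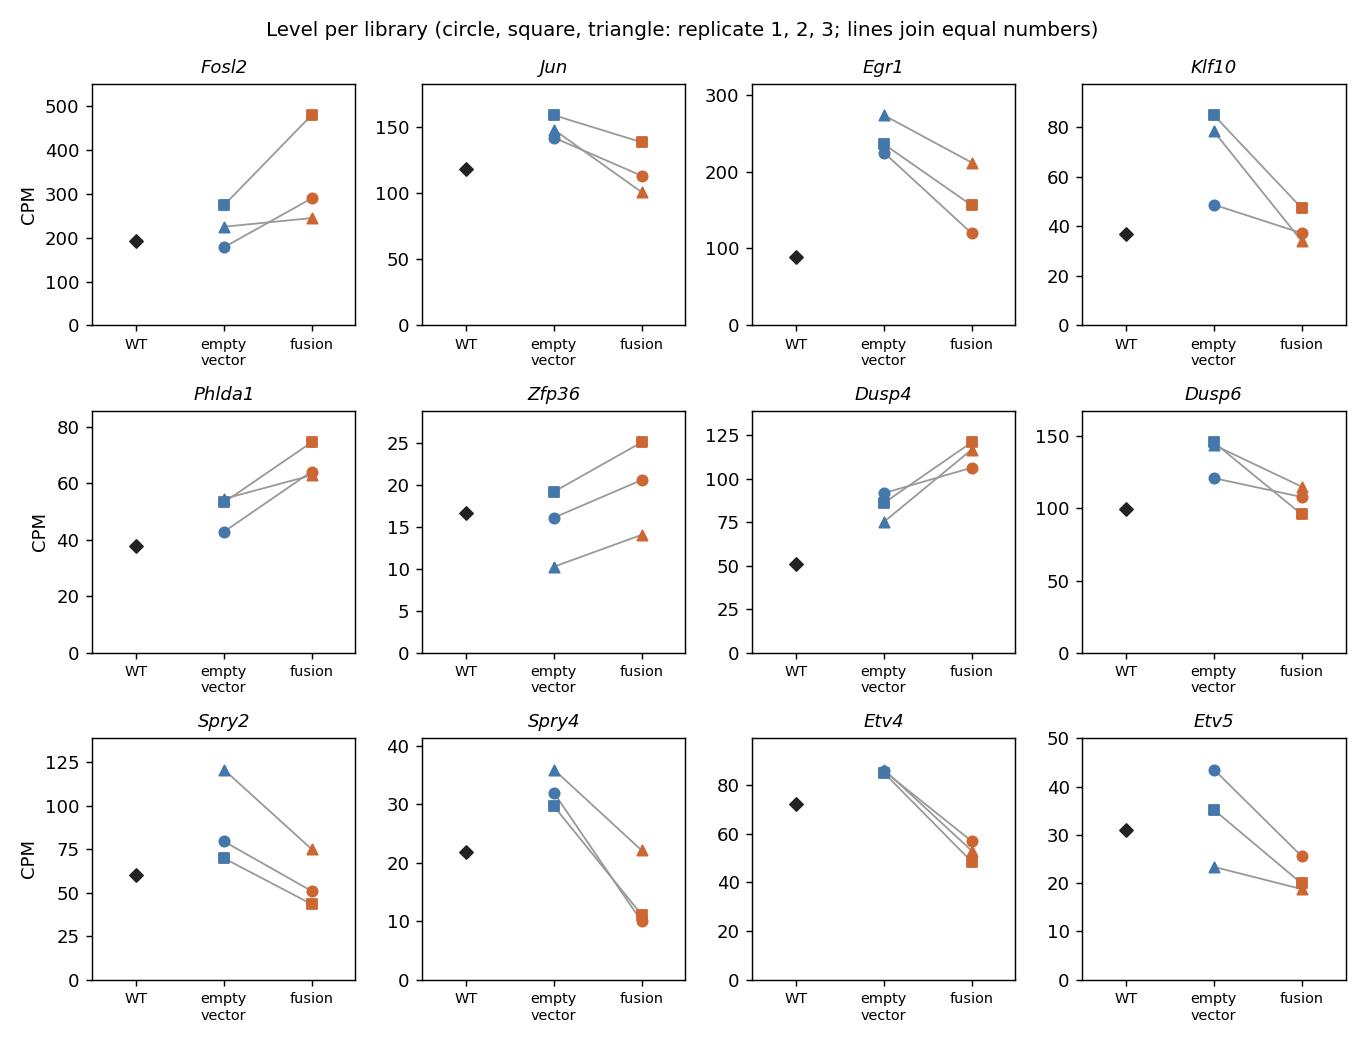
CPM of 12 genes in the WT library (black), the empty vector libraries (blue) and the fusion libraries (orange), each panel starting at 0; lines join equal replicate numbers. All lines fall for Jun, Egr1, Klf10, Dusp6, Spry2, Spry4, Etv4 and Etv5 and rise for Fosl2, Phlda1, Zfp36 and Dusp4.

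Set side by side, the AP-1 and EGR genes and the feedback genes (DUSP, SPRY, SPRED and ETV) both had medians below 0. The median paired fold change was -0.18 over the 10 AP-1 and EGR genes and -0.35 over the 13 feedback genes tested, beside 0.01 over all tested genes. In the paired fit 1 of 10 AP-1 and EGR genes passed, downward, and 5 of 13 feedback genes, 4 downward and 1 upward. These are 10.0% and 38.5%, and 13.1% of all tested genes passed, so the AP-1 and EGR share lies near the background. Among feedback genes 9 of 13 (69.2%) were lower in all 3 number pairs and 3 were higher, against 3 of 10 (30.0%) and 2 for the AP-1 and EGR genes, while 24.6% of all tested genes were lower and 27.8% higher in all pairs. Over the 36 genes 9 (25.0%) had every fusion library below every empty vector library and 3 had every one above, against 6.65% and 9.15% of all tested genes. Within pairs 1, 2 and 3 the median of the SPRY, SPRED and ETV genes was -0.53, -0.45 and -0.48, that of the 5 DUSP genes -0.15, -0.08 and -0.32, and that of all 13 feedback genes -0.19, -0.22 and -0.41. The AP-1 and EGR genes had -0.14, -0.09 and -0.40, close to the DUSP genes. They were close to the feedback genes as a whole in pairs 1 and 3, and nearer 0 in pair 2. Without the libraries numbered 3 the median without pairing was -0.01 for the AP-1 and EGR genes and -0.29 for the feedback genes. The difference between the gene groups was not tested, because genes of 1 group share the same libraries.

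The single WT library was set against empty vector, with its spread assumed to be that of the other groups. The same protocol text is attached to WT, and whether it saw virus or a change of medium is not stated. Vector, virus and medium change therefore cannot be told apart in this comparison. Most of the genes were lower in WT than with empty vector: 23 of 36 (63.9%) lay below every empty vector library and 2, Dusp1 and Spred1, above, against 21.6% and 22.7% of all tested genes. None passed edgeR's test without pairing, where 0.0% of all genes did. An unadjusted edgeR p under 0.05 was found for 6 of the 36, and for 746 of all 16731 tested genes. DESeq2 called Egr1 alone (0.46% of all genes). In the paired fit none passed either (0.12% of all genes). With numbers 1 and 2 alone, paired, 9 of the 36 passed by edgeR (13.0% of all genes), among them Egr1 (1.25, adjusted p = 0.00266) and Dusp1 (-1.31, adjusted p = 0.0133); paired DESeq2 on all libraries called 4 (6.9%). WT is labelled replicate 1 and was blocked with that number. Without pairing, all 10 AP-1 and EGR genes had positive fold changes of empty vector over WT (median 0.41). So did 9 of 13 feedback genes (median 0.25) and 8573 of all 16731 tested genes (median 0.01). In the paired fit 2 of the AP-1 and EGR values turned negative. All these signs rest on the same WT library. Egr1 had the largest value, at 1.45 (SE 0.38, edgeR adjusted p = 0.767 without pairing, 0.0595 paired and DESeq2 0.043). Without pairing Dusp1 lay furthest below 0, at -1.21 (edgeR adjusted p = 0.845, paired 0.137). In the paired fit Klf2 lay lower, at -1.28 against -1.19 for Dusp1 (adjusted p = 0.147 for Klf2), and with numbers 1 and 2 alone, paired, Klf2 passed (-1.41, adjusted p = 0.0179). With 1 WT library, its own deviation and the state of WT cells cannot be told apart.

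Fusion over WT shares the WT library with the preceding comparison and the fusion libraries with the first, so the values only stand side by side. None of the 36 genes passed without pairing (0.436% of all genes did), and DESeq2 called Dusp4 (2.98% of all genes). An unadjusted edgeR p under 0.05 was found for 3 of the 36, and for 1284 of all 16731 tested genes. In the paired fit, where 9.81% of all genes passed, Dusp4 and Phlda1 were higher and Spry1 was lower. Dusp4 stood at 1.19 (SE 0.17, edgeR adjusted p = 0.0144), Phlda1 at 0.69 (SE 0.16, 0.0468) and Spry1 at -0.78 (SE 0.16, 0.0373). The shares of all genes higher and lower were 4.57% and 5.25%. Without number 2 none of the 36 passed (0.991% of all genes), with numbers 1 and 2 alone, paired, 12 did (23.6%), and paired DESeq2 called 7 (15.3%). Klf10 stood at 0.10 without pairing and -0.19 paired, and Dusp6 at 0.09 and 0.02, with no call. Egr1 stood at 0.86 and 0.57 (edgeR adjusted p = 0.621 and 0.102).

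**Figure D4:**
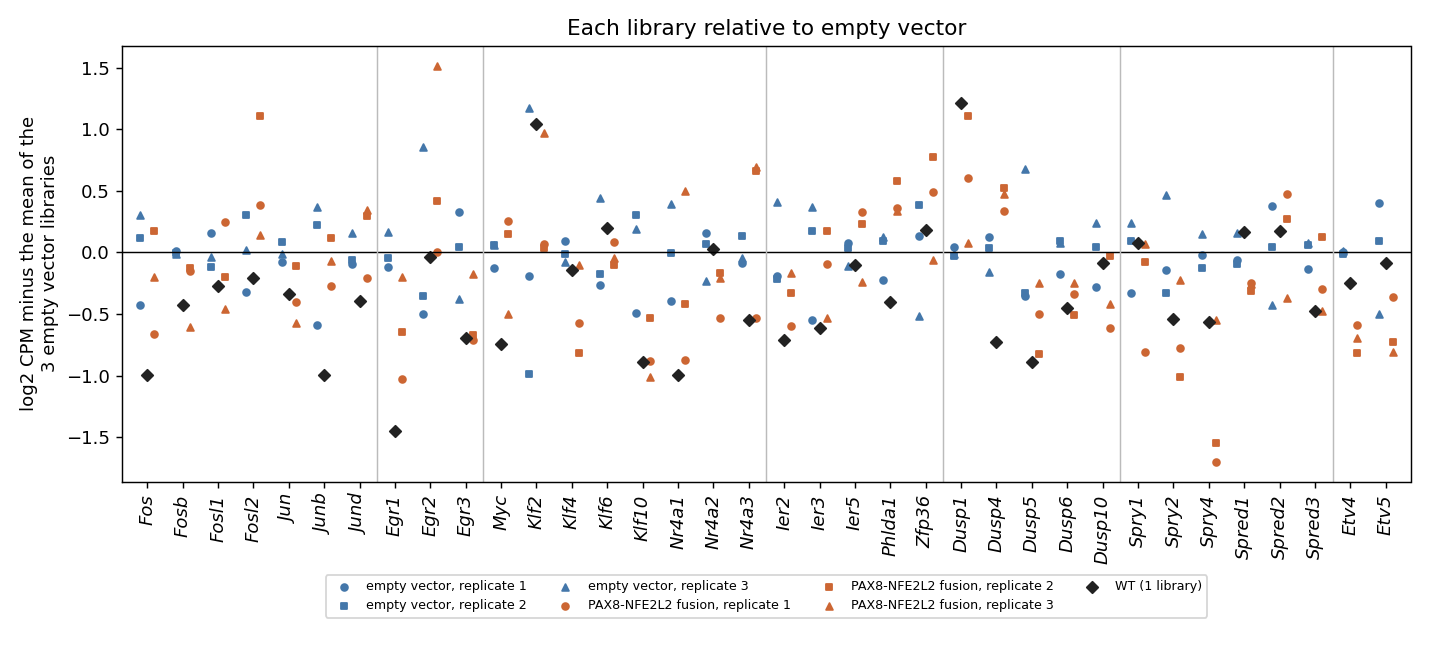
Log2 CPM of each of the 36 tested genes in every library, minus the mean of the 3 empty vector libraries; diamonds are the WT library. WT lies below the empty vector libraries for most genes, lowest for Egr1, and far above them for Dusp1, while fusion replicates 1 and 2 of Spry4 are the lowest points.

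Other genes of the pathway were read from lists chosen for their role, against a background of 7.63% of all tested genes higher and 5.5% lower in the paired fit. Of 8 EGF family ligands, Nrg1 rose (22.9 ± 6.22 to 37 ± 12.3 CPM, mean ± SD, n = 3; paired edgeR adjusted p = 0.0123) and Tgfa fell (6.4 ± 2.74 to 3.2 ± 1.14 CPM, 0.0249). Of 10 growth factor receptors tested, Egfr, the EGF receptor, rose (65.8 ± 19.3 to 120 ± 43 CPM, paired edgeR adjusted p = 0.0461) and none fell. In the RAS-ERK cascade 3 of 18 rose and 1 fell in the paired fit. Among the risers was Ksr1, a scaffold that holds RAF, MEK and ERK together, at 18.7 ± 5.79 and 40.7 ± 9.74 CPM (paired 1.14, edgeR adjusted p = 0.00211, and 0.0324 without number 2). None of the genes in these 3 lists passed edgeR's test without pairing, and DESeq2 called Ksr1 alone (adjusted p = 0.0149).

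None of 6 SRF and ternary complex factors passed in either edgeR fit, and the counts here too are read against 7.63% higher and 5.5% lower among all tested genes. Of 7 other partners of AP-1, 1 rose and 2 fell in the paired fit. Jdp2, a repressor that pairs with JUN proteins, went from 77.7 ± 6.28 to 46.5 ± 5 CPM (paired -0.74, edgeR adjusted p = 0.00318, and 0.0428 without number 2), and Mafg, a small MAF protein that is also the partner of NRF2, from 118 ± 8.06 to 162 ± 18.8 CPM (0.45, adjusted p = 0.0177). None of 5 other MAP kinase phosphatases passed in either edgeR fit. Of 10 later ERK-responsive genes 2 rose and 4 fell in the paired fit. Vgf, a secreted neuropeptide precursor, was the 1 gene of these lists that also passed edgeR's test without pairing. It went from 0.558 ± 0.0953 to 4.77 ± 1.44 CPM (3.09, edgeR adjusted p = 0.00475). DESeq2 without pairing called 2 of the AP-1 partners, both lower, and 1 later ERK-responsive gene in each direction. It called 5.51% of all tested genes, and 1.79% lower. Ets2, an ETS factor that ERK phosphorylates, went from 75 ± 26.4 to 159 ± 64.8 CPM (paired 1.06, adjusted p = 0.00131), and Ccnd1, cyclin D1, from 354 ± 83.2 to 231 ± 67.4 CPM (-0.63, adjusted p = 0.00606). With number 2 left out, Ksr1, Jdp2, Vgf and Ets2 passed the paired edgeR test, while Nrg1, Tgfa, Egfr, Mafg and Ccnd1 did not (adjusted p = 0.0605 to 0.225). With number 1 left out, Nrg1 and Tgfa did not pass (adjusted p = 0.054 and 0.103).

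**Figure D5:**
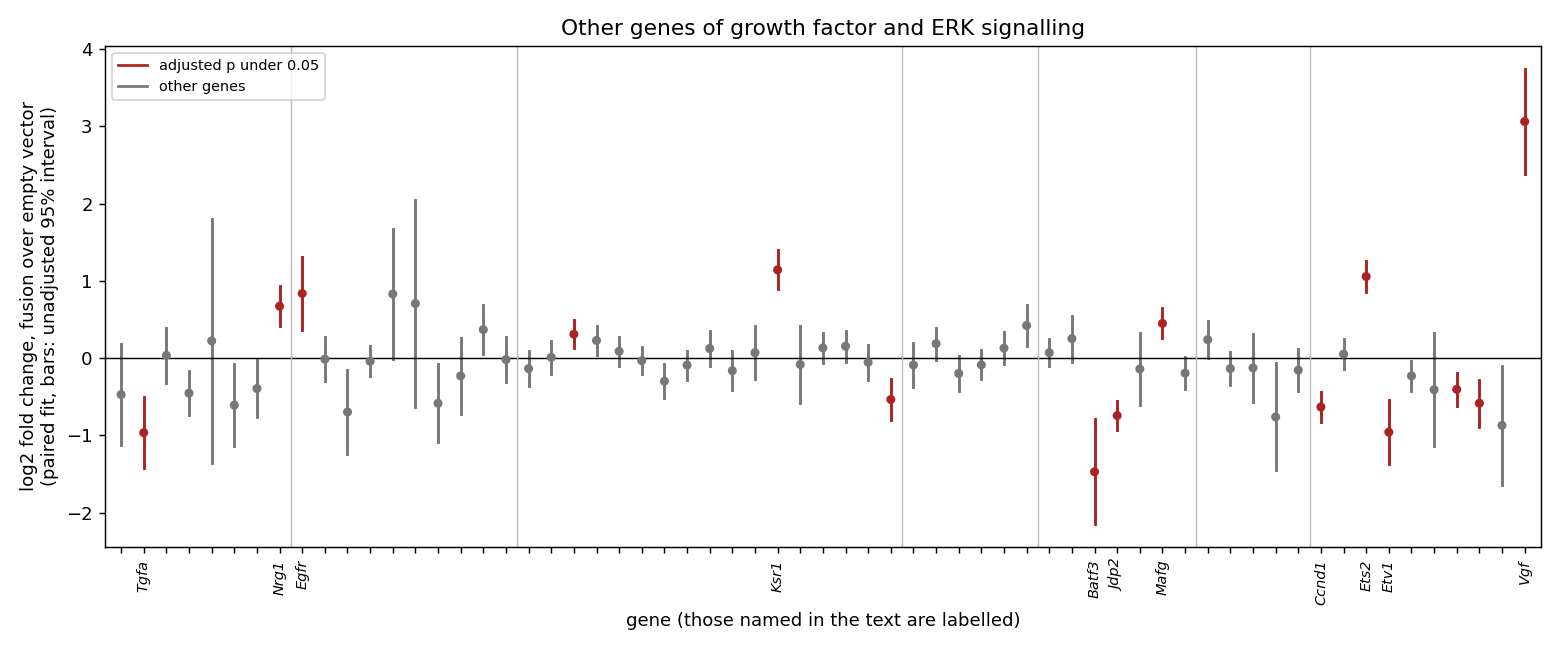
Paired log2 fold change, fusion over empty vector, of tested genes of 7 further lists, with unadjusted 95% intervals and the genes named in the text labelled; lines separate EGF family ligands, growth factor receptors, the RAS-ERK cascade, SRF and ternary complex factors, AP-1 partners, other phosphatases and later ERK-responsive genes. Red marks an adjusted p under 0.05: Vgf stands highest at 3.06 and Batf3 lowest at -1.47.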

How the data were processed

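Gene counts of 7 TRAMP-C1 libraries were used. STAR, HTSeq and the build GRCm38 are named in the submitters' processing notes. Neither their versions nor which annotation or strand option was used is given in the sources used here. Opposite-strand exon overlaps, which concern 10 of the 37 genes, therefore cannot be resolved. The deposited values are whole-number read counts per gene, 1 table per lane, from 50 bp single-end reads of polyadenylated RNA per the labels' protocols. The 12 lane tables were summed per library; the chi-square of gene counts, divided by its degrees of freedom, was 0.978 to 1.01 between lanes of a library, which is sampling noise, and 108 to 311 between libraries of 1 group. Rows that name no gene stayed out: 5.73 to 6.93% of reads lay outside genes, 1.22 to 1.48% were ambiguous and 36.1 to 45.3% had several alignments, most in the libraries numbered 3.

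Symbols, positions and exon lengths come from GENCODE M21 (46005 of 46603 rows had a symbol). edgeR 4.0.16 in R 4.3.3 used TMM normalization, filterByExpr with a minimum count of 10, robust quasi-likelihood F tests and Benjamini-Hochberg adjustment over all 16731 tested genes at 0.05; fusion over empty vector was fitted on 6 libraries and comparisons with WT on 7. DESeq2 1.42.0 was an alternative. SEs are the fold change over the root of F. The fitting script was tested on simulated data. The paired fit uses replicate numbers because same-numbered libraries correlated above 0.1 in all 3 pairs; no label names what a number shares. Genes given with values in every library were the 8 past a test and the next 4 by paired p; others were added where a sentence needed them, after their values were seen, as were Etv1 and the paired fits without number 1 or 2 and with DESeq2. The 37 genes and the lists were chosen with earlier results of these data known. Some marker and pathway genes are not reported here. Limits for 0 counts (3 counts) cover counting error only. Intervals of fold changes were built from these SEs and also include the spread between the libraries used.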

Additional observations from a re-analysis of the deposited data

How the results depend on the processing

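The replicate block moved most counts. For fusion over empty vector edgeR called 341 genes and 0 of the 36 without it, and 2196 and 8 with it; DESeq2 called 922 and 2 (2982 and 17 with the block), no count filter 521 and 1, the libraries numbered 1 and 2 alone 1 of the 36 (with the block 3200 genes and 15), and the block without number 1 1537 genes and 8. Leaving out 1 library at a time gave 133 to 384 genes and 0 to 1 of the 36. For empty vector over WT 0 genes became 20 with the block, 77 with DESeq2 (1 of the 36), 15 without filter, 2183 (9) with numbers 1 and 2 and the block, 1154 (4) with DESeq2 and the block, and 0 to 5 with 1 library left out. For fusion over WT 73 genes became 1642 with the block (3 of the 36), 498 with DESeq2 (1), 245 without filter, 29 with numbers 1 and 2, 3958 (12) with those and the block, 2565 (7) with DESeq2 and the block, 165 with the block without number 2, and 1 to 118 with 1 library left out. Among the 12 genes followed through all settings, signs turned for 6, in comparisons with WT, and no turned value was called; Egr2, Dusp10 and Spred2, not among the 12, also turned with the block, empty vector over WT (-0.53, -0.18 and 0.19). Empty vector over WT, Etv5 ran from -0.062 to 0.34 and Zfp36 from -0.32 to 0.084 with 1 library left out, Zfp36 was 0.082 with numbers 1 and 2, and Fosl2 was -0.033 with the block, -0.14 with numbers 1 and 2 and the block and -0.018 with DESeq2 and the block. Fusion over WT, with 1 library left out, Klf10 ran from -0.046 to 0.19, Spry2 from -0.35 to 0.077 and Jun from -0.14 to 0.085; Jun was 0.083 with numbers 1 and 2, and Klf10 was -0.19 with the block, -0.10 with numbers 1 and 2 and the block, -0.19 with DESeq2 and the block and -0.18 with the block without number 2. The cause was not tested; the paired fits with DESeq2 and without number 1 or 2 were chosen after seeing the data. For WT comparisons the block without number 1 was not run.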
